A study of Mus musculus with 4 samples.

Results

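Gangliosides are glycolipids built on ceramide that carry sialic acid, and the 10 genes described here encode enzymes that assemble them: *Ugcg*, *B4galt6*, *St3gal5*, *St8sia1*, *St8sia3*, *St8sia5*, *B4galnt1*, *B3galt4*, *St3gal1* and *St3gal2*. They were matched by exact symbol among the 53379 gene identifiers of the data and were a pathway set chosen by its expected counts and TPM in the comparison of PD800 with PD100. Their levels and differences in that comparison are therefore given as a description, with no p-value printed. Where they are set beside the thresholds used for all genes, that is a description too. Of the 10 enzymes, 6 are sialyltransferases and 4 transfer other sugars. RNA came from DKO741, a *Terc*-/- mouse embryonic stem cell line made from E14 cells by targeting both alleles of the telomerase RNA gene. The line was compared at population doubling 100 (PD100, pre-ALT, before telomeres are maintained without telomerase) and at population doubling 800 (PD800, post-ALT, after survivors had maintained them by alternative lengthening of telomeres), with 2 libraries of each. Both groups lack *Terc* and both come from 1 cell line, and the labels name no agent that set them apart, so that passage number, clonal history and ALT state cannot be told apart. Feeder fibroblasts were used to maintain stocks, while cells for extraction were grown without feeders. The study sequenced these groups to see how gene expression differed before and after ALT.

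The pathway runs in order through the Golgi. Glucosylceramide synthase (*Ugcg*) and lactosylceramide synthases (*B4galt6* and its relative *B4galt5*) make the neutral core, GM3 synthase (*St3gal5*) adds sialic acid to it, and GD3 synthase (*St8sia1*) adds another to GM3, which opens the b-series of gangliosides. GM3 and GD3 are then extended by *B4galnt1*, which makes GM2 and GD2, by *B3galt4*, which makes GM1a and GD1b, and by *St3gal1* and *St3gal2*, which cap the terminal galactose. *St8sia5* and *St8sia3* add further sialic acids in a chain. GD3 is known as a surface lipid of neural stem cells, while undifferentiated mouse embryonic stem cells are commonly recognised by the fucosylated SSEA-1 structure.

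Each library had an expected count per gene, an estimate that shares out reads with several alignments, and a TPM value, which is also scaled for transcript length. The total expected count was between 32454121 and 38492149 per library, and a floor of 3 counts lay between 0.0743 and 0.0934 CPM (counts relative to the scaled library total), which covers counting error only. *Terc* had 1 count in PD100 replicate 1 and 0 counts in the other 3 libraries. Across all 19148 tested genes, 2888 (15.1%) were called, that is, differed by more than 2-fold with an edgeR adjusted p under 0.01. Of these 1202 were higher and 1686 lower at PD800, so that 41.6% of calls were higher, while on the TPM scale 24.4% (pseudocount 1) or 23.1% (pseudocount 0.1) were. The stem cell label fits the marker genes: *Pou5f1* had a mean of 485 CPM at PD100 and 618 CPM at PD800, and *Sox2* had 136 and 210 CPM. The summed level of the 10 embryonic stem cell markers was 1881 to 2224 CPM at PD100 and 3830 to 3924 CPM at PD800, and 5 of the 10 were called higher (*Nanog*, *Klf4*, *Esrrb*, *Tfcp2l1* and *Tbx3*). The summed level of the 10 primitive endoderm markers was 158 to 186 CPM at PD100 and 13.2 to 13.3 CPM at PD800, with 8 of 9 tested markers called lower (*Gata6*, *Gata4*, *Sox17*, *Pdgfra*, *Sox7*, *Foxa2*, *Dab2* and *Cubn*). The 10 fibroblast markers summed to 51.5 to 73.8 CPM at PD100 and 15.7 to 16.5 CPM at PD800, with 4 of 8 tested called lower, *Col1a1*, *Col1a2* and *Thy1* among them, and *Lum* at or under the floor in every library. The 10 neural markers summed to 132 to 153 CPM and 135 to 137 CPM, with 3 of 7 tested called higher (*Tubb3* among them), 1 lower (*Nes*) and *Dcx* at 0 in every library. The 8 trophoblast markers summed to 33.5 to 35.6 CPM and 42.0 to 43.7 CPM, with 2 of 6 tested called higher (*Eomes* among them), 2 lower and *Tpbpa* at or under the floor. The summed ranges of the groups did not overlap for these lists except the neural one, and the part of these markers in the values of the ganglioside genes was not tested. In bulk RNA, fewer cells that express a gene and less RNA of it per cell cannot be told apart.

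The enzymes at the ganglioside entry point moved in opposite directions. *St8sia1* was 13.6-fold higher at PD800, while *St3gal5*, the enzyme that makes its substrate, was 2.32-fold lower. Further down, *B4galnt1* was 3.80-fold lower and *St3gal1* was 8.11-fold lower. *Ugcg* and *B4galt6*, of the neutral core, had log2 differences of -0.44 and -0.19. All 10 genes passed the filter on low counts, *St8sia5* through its PD800 libraries alone. Of the 10, 4 lay past the thresholds used for all genes (*St8sia1* higher, and *St3gal5*, *St3gal1* and *B4galnt1* lower), beside the 15.1% of all tested genes called, 6.28% higher and 8.81% lower. *St3gal5* was no longer past them on either TPM scale (log2 differences of -1.28 with a pseudocount of 0.1 and -0.67 with 1), or without PD800 replicate 1 (-1.40) or PD800 replicate 2 (-1.04), and *St3gal1* was not on log2(TPM + 1) (-0.65). The CPM ranges of the groups did not overlap for 9 of the 10 genes, beside 73.7% of all tested genes. For 2 of them PD800 was higher (37.4% of all tested genes) and for 7 it was lower (36.3%). Both counts describe genes chosen with this contrast in view, and nothing is read from them. The median log2 difference of the 10 genes was -0.31, beside 0.01 over all tested genes.

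**Figure D1:**
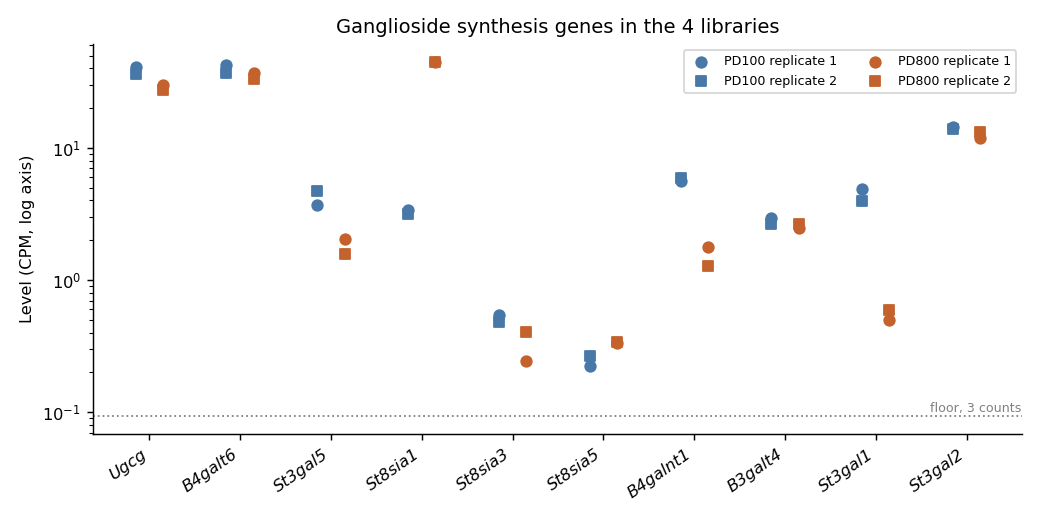
Level of each gene in each of the 4 libraries, in CPM on a log axis, ordered by place in the pathway (blue, PD100; orange, PD800; circles, replicate 1; squares, replicate 2; dotted line, the highest floor of 3 counts). *St8sia1* goes from 3.15 to 3.42 CPM at PD100 to 44.6 to 44.9 CPM at PD800, while both PD800 points of *St3gal1*, *St3gal5* and *B4galnt1* lie below both PD100 points.

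The sequences before the RefSeq start sites of the entry enzymes are shown because *St8sia1* and *St3gal5* act on consecutive steps and moved apart. RefSeq promoters were at hand for 4 of the 10 genes (*St8sia1*, *St3gal5*, *B3galt4* and *Ugcg*). The 250 bases before the annotated start of *St8sia1* (GRCm38.p6, chr6:142964453-142964702, minus strand) and of *St3gal5* (GRCm38.p6, chr6:72097358-72097607, plus strand, reaching a few bases into the gene as GENCODE annotates it) are written on the strand of the gene, with capitals at GC boxes (GGGCGG, or CCGCCC on the other strand) and CCAAT boxes (CCAAT, or ATTGG on the other strand).
St8sia1: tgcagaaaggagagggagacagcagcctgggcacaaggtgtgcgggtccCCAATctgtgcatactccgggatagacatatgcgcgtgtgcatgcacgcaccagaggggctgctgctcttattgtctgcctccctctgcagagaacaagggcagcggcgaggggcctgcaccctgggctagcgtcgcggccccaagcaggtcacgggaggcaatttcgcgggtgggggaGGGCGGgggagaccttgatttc
St3gal5: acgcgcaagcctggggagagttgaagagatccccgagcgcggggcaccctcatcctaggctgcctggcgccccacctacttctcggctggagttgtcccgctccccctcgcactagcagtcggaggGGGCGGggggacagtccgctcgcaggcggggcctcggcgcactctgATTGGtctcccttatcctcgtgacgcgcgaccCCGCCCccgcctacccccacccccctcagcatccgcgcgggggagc

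The *St8sia1* window held 1 GC box and 1 CCAAT box, and the *St3gal5* window held 2 GC boxes and 1 CCAAT box. Among the 32851 RefSeq promoter windows of that length, 32.7% held a GC box and 33.8% a CCAAT box on either strand, so that these letters are common. The GC content was 63.6% for *St8sia1*, with 14 CG dinucleotides, and 71.6% for *St3gal5*, with 25 CG dinucleotides, beside medians of 52.4% and 6 over all windows. *Ugcg* had the most CG-rich of the 4 windows, at 80.4% GC with 43 CG dinucleotides and 2 GC boxes, but that window (chr4:59189300-59189549) lies inside the gene as GENCODE annotates it. *B3galt4* had 59.2% GC, 14 CG dinucleotides and 1 GC box. Neither a TATA box (TATAAA or TTTATA, in 12.4% of all windows) nor the E-box CACGTG (6.02%) was found in the 4 windows. The genes that differed in opposite directions, *St8sia1* and *St3gal5*, thus both had GC-rich windows with both of the marked motifs.

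*Ugcg*, which commits ceramide to glycolipids, lies on chromosome 4 of GRCm38 from 59189257 to 59222833. It had expected counts of 1662 and 1203 at PD100 and of 1067 and 880 at PD800. These are 41.2 and 36.0 CPM at PD100 and 29.7 and 27.4 CPM at PD800, so that both PD800 libraries lay below both PD100 libraries. The log2 difference was -0.44 (SE 0.10). *B4galt6*, a lactosylceramide synthase on chromosome 18 (20684599 to 20746404), had 42.4 and 36.8 CPM at PD100 and 36.6 and 32.9 CPM at PD800, with a log2 difference of -0.19 (SE 0.10). The PD800 replicate 1 value was just under the lower PD100 value. The other lactosylceramide synthase, *B4galt5*, is not a member and was at 29.5 ± 0.202 CPM (SD, n = 2) at PD100 and 29.6 ± 1.68 CPM at PD800, with an edgeR adjusted p of 0.993.

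*St3gal5*, GM3 synthase, lies on chromosome 6 from 72097592 to 72154571. It had expected counts of 149 and 157 at PD100 and of 73 and 51 at PD800. The levels were 3.69 and 4.70 CPM at PD100 and 2.03 and 1.59 CPM at PD800, with means of 4.20 ± 0.716 and 1.81 ± 0.314 CPM (SD, n = 2). The groups did not overlap, and the log2 difference was -1.21 (SE 0.22). On the TPM scale *St3gal5* was 1.35 and 1.54 at PD100 and 0.62 and 0.46 at PD800, a ratio of 2.68. It was the gene just inside the fold threshold, and *St8sia3*, at a log2 difference of -0.66, and *St8sia5*, at 0.46, were the next outside it.

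*St8sia1*, GD3 synthase, lies on the minus strand of chromosome 6 from 142821545 to 142964452, 6619204 bases from the last annotated base of the chromosome. It had expected counts of 138 and 105 at PD100 and of 1613 and 1433 at PD800. The levels were 3.42 and 3.15 CPM at PD100 and 44.9 and 44.6 CPM at PD800. The means were 3.28 ± 0.193 and 44.7 ± 0.196 CPM (SD, n = 2), so that the gap between groups was far wider than the gap between replicates, and the log2 difference was 3.76 (SE 0.09). On the TPM scale it went from 0.94 and 0.61 to 6.81 and 6.48, which is 8.57-fold. TPM, unlike CPM, divides by transcript length, and the mean length that RSEM assigned to the gene was 2994 and 3763 bases at PD100 and 4404 and 4352 bases at PD800. The annotation lists 3 transcripts of *St8sia1*, of 8991, 797 and 2159 bases. An exon of *Gm7457*, a non-coding gene on the opposite strand, overlaps an exon of *St8sia1*, and it had 2 and 3 counts at PD100 and 27 and 23 counts at PD800. The study shows RNA-seq reads by direction of transcription, but whether the counting used strand is not given in the sources used here. Without knowing that, the reads of the overlap cannot be told apart.

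The other chain-extending sialyltransferases had at most 22 expected counts in any library. *St8sia3*, on chromosome 18 from 64254359 to 64279611, had expected counts of 22 and 16 at PD100 and of 8.74 and 13 at PD800. Its levels were 0.545 and 0.479 CPM at PD100 and 0.243 and 0.405 CPM at PD800, with a log2 difference of -0.66 (SE 0.37). In TPM, *St8sia3* was listed at 0.24 and 0.15 at PD100 and at 0.03 and 0.04 at PD800, which is 5.57-fold lower, beside 1.58-fold in CPM. The length that RSEM assigned to it was 1956 and 2443 bases at PD100 and 6282 bases in both PD800 libraries, so that the size of its difference depends on the scale. *St8sia5*, which acts late in the pathway and lies on chromosome 18 from 77185839 to 77258771, had 9 and 8.82 counts at PD100 and 11.96 and 11 counts at PD800. Its levels were 0.223 and 0.264 CPM and 0.333 and 0.342 CPM, and the log2 difference was 0.46 (SE 0.38). Both genes share exon sequence with an opposite-strand transcript, *St8sia3os* and *Gm7276*, each with at most 3.04 counts in a library.

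*B4galnt1*, GM2 and GD2 synthase, lies on chromosome 10 from 127165225 to 127172330, 3420375 bases from the last annotated base. It had expected counts of 228 and 197 at PD100 and of 63.5 and 40.9 at PD800. The levels were 5.66 and 5.89 CPM at PD100 and 1.77 and 1.27 CPM at PD800, with means of 5.78 ± 0.168 and 1.52 ± 0.350 CPM (SD, n = 2), and the log2 difference was -1.91 (SE 0.20). Both PD800 libraries lay well below both PD100 libraries. An exon of *Slc26a10* on the opposite strand overlaps the gene, and this neighbour had 129 and 99.3 counts at PD100 and 125 and 86.1 counts at PD800. At PD800 these were more than the counts of *B4galnt1* itself. As for *St8sia1*, the reads of the overlap cannot be told apart without knowing whether the counting used strand. *B3galt4*, GM1a and GD1b synthase, lies on chromosome 17 from 33949909 to 33951488. Its levels were 2.95 and 2.64 CPM at PD100 and 2.48 and 2.68 CPM at PD800, the log2 difference was -0.12 (SE 0.18), and it was the gene whose CPM ranges overlapped. In TPM both PD800 values, 1.13 and 1.16, lay below the PD100 values of 1.63 and 1.31.

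The capping enzymes that use the same acceptor galactose differed from each other. *St3gal1*, which also caps O-glycans of glycoproteins, lies on chromosome 15 from 67102875 to 67176830 and had 198 and 132 counts at PD100 and 18 and 19 counts at PD800. Its levels were 4.90 and 3.95 CPM at PD100 and 0.501 and 0.591 CPM at PD800, with means of 4.43 ± 0.672 and 0.546 ± 0.064 CPM (SD, n = 2), and the log2 difference was -3.02 (SE 0.24). *St3gal2*, on chromosome 8 from 110919922 to 110972480, had 14.5 and 14.0 CPM at PD100 and 11.9 and 13.2 CPM at PD800, with a log2 difference of -0.18 (SE 0.10). In TPM, *St3gal2* was 3.92 and 4.91 times as high as *St3gal1* at PD100 and 27.6 and 29.4 times as high at PD800, where *St3gal1* was listed at 0.07 in both libraries.

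**Figure D2:**
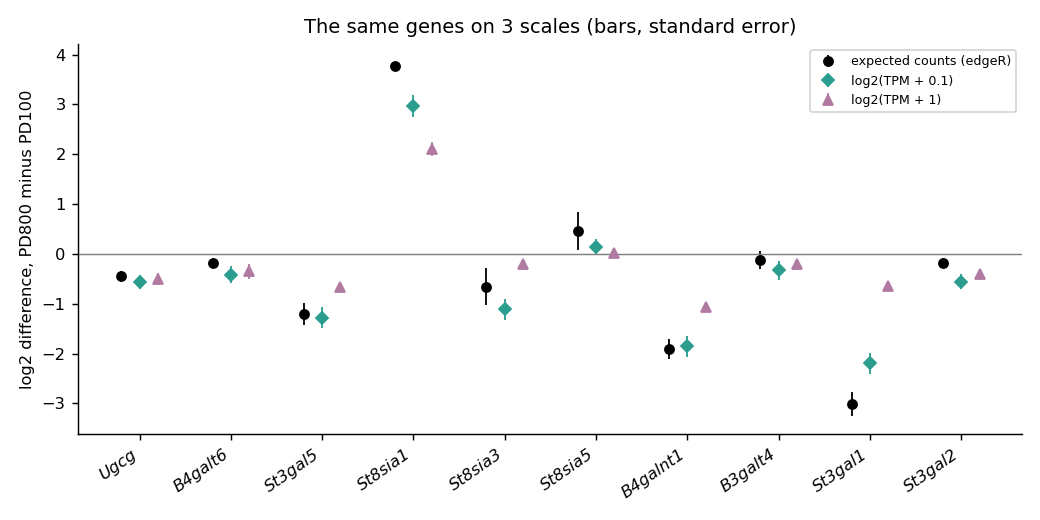
Log2 difference of each gene, PD800 minus PD100, from expected counts (circles), from log2(TPM + 0.1) (diamonds) and from log2(TPM + 1) (triangles), with bars for the standard error. Each gene keeps its sign on the 3 scales, and *St3gal1* goes from -3.02 from counts to -2.19 with the smaller and -0.65 with the larger pseudocount of TPM.

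Ordered by mean TPM, which allows levels of different genes to be compared per length, the PD100 cells had *Ugcg* highest at 8.26 TPM, followed by *B4galt6* (5.21), *St3gal2* (2.98), *B4galnt1* (2.26), *B3galt4* (1.47), *St3gal5* (1.45), *St8sia1* (0.775), *St3gal1* (0.685), *St8sia3* (0.195) and *St8sia5* (0.10). The ranges of *B3galt4* and *St3gal5* overlapped, as did those of *St8sia1* and *St3gal1*. At PD800 the order began with *St8sia1* at a mean of 6.65 TPM, followed by *Ugcg* (5.55), *B4galt6* (3.87), *St3gal2* (1.99), *B3galt4* (1.15), *B4galnt1* (0.56), *St3gal5* (0.54), *St8sia5* (0.12), *St3gal1* (0.07) and *St8sia3* (0.035). There *B4galnt1* and *St3gal5* overlapped. *St8sia1* thus went from the lower part of the order to its top, and *St3gal1* went from above *St8sia5* to below it.

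Ratios within a library compare enzymes that share a substrate or act in sequence, and they do not depend on library scaling. Ratios of TPM do depend on the length that RSEM assigned to each gene. For *St8sia1* that length was 2994 and 3763 bases at PD100 and 4404 and 4352 bases at PD800. For *St3gal5* it was between 2258 and 2301 bases in all libraries. The ratio of *St8sia1* to *St3gal5* in TPM was 0.696 and 0.396 at PD100 and 11.0 and 14.1 at PD800. Between *St8sia1* and *B4galnt1*, which both use GM3, the ratio was 0.407 and 0.276 at PD100 and 10.3 and 14.1 at PD800. In each of these pairs the GD3 synthase RNA was the lower at PD100 and the higher at PD800. The ratio of *B4galnt1* to *St3gal5* moved less, from 1.71 and 1.44 to 1.06 and 1.00. *Ugcg* over *St3gal5* went from 6.56 and 4.97 to 9.53 and 11.3, while *Ugcg* over *B4galt6* stayed between 1.41 and 1.67 in the 4 libraries. These are ratios of RNA and say nothing of enzyme activity or of lipid amounts, which were not measured here.

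The 20 sialyltransferase genes of the mouse that were listed, members included, summed to 28.5 and 24.9 TPM at PD100 and 32.7 and 29.7 TPM at PD800. *St8sia1* made up 3.30% and 2.45% of that sum at PD100 and 20.8% and 21.9% at PD800, going from rank 10 to rank 1 in both libraries of each group. *St6galnac3*, which adds sialic acid to N-acetylgalactosamine of gangliosides and O-glycans, went from 4.77% and 3.06% to 20.1% and 16.1%. *St6galnac2*, an O-glycan enzyme, ranked highest at PD100 with 18.5% and 18.9% and had 9.39% and 9.04% at PD800. *St3gal5* went from 4.74% and 6.19% to 1.90% and 1.55%, *St3gal2* from 10.9% and 11.5% to 5.91% and 6.95%, and *St3gal1* from 2.77% and 2.33% to 0.214% and 0.236%. A share falls when another gene's level is higher, so these values describe the makeup of the family rather than the level of a gene.

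**Figure D3:**
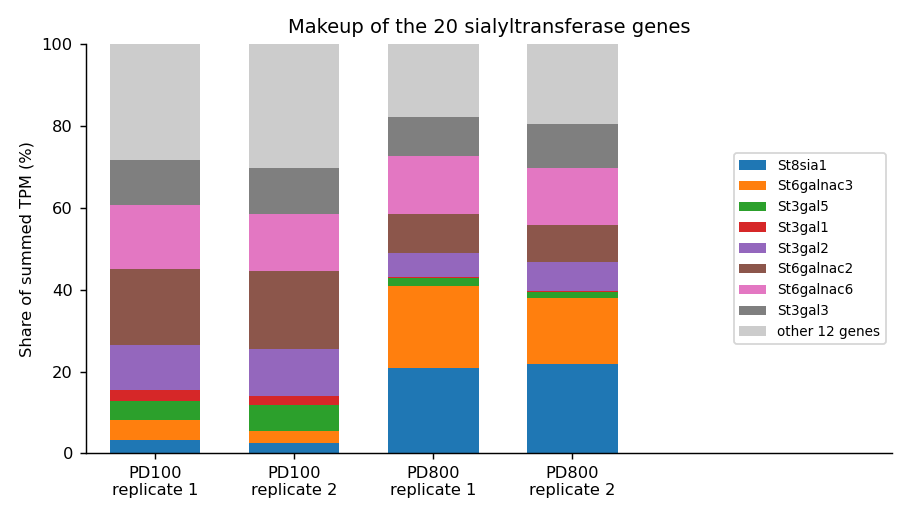
Share of the summed TPM of the 20 sialyltransferase genes, in percent, for each of the 4 libraries (1 bar per library, colours for 8 genes and grey for the other 12). *St8sia1* and *St6galnac3* together take the lower part of both PD800 bars, and the shares of *St3gal5*, *St3gal1*, *St3gal2* and *St6galnac2* are smaller there than at PD100.

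Among the 14 other sialyltransferases, 13 were tested (*St6galnac1*, at 0 counts, was not). Of these 3 were called, 1 higher and 2 lower, which is 23.1% beside 15.1% of all tested genes. *St6galnac3* rose from 2.82 ± 0.0442 to 20.9 ± 2.02 CPM (SD, n = 2; log2 difference 2.89, SE 0.12, edgeR adjusted p = 5.27e-05). *St6gal2*, which sialylates galactose in a different linkage, fell from 1.81 ± 0.141 to 0.577 ± 0.108 CPM (-1.65, edgeR adjusted p = 0.00344). *St8sia4*, a polysialic acid synthase, fell from 2.73 ± 0.0784 to 0.938 ± 0.0503 CPM (-1.54, edgeR adjusted p = 0.00187). The median of the tested genes was -0.12. *St6gal2* and *St8sia4* were no longer called without PD800 replicate 1 (adjusted p of 0.0257 and 0.0122) or without PD800 replicate 2 (0.0108 and 0.0148), which left 1 called gene.

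Of the 13 other glycosphingolipid synthesis genes, 12 were tested (*B3galt5*, at 3 to 8 counts, was not). Of these 4 were called, *Fut1* among them, which is 33.3% beside 15.1% of all tested genes. *Fut9*, the enzyme of the SSEA-1 structure in mouse stem cells, rose from 12.2 ± 1.14 to 31.0 ± 3.86 CPM (log2 difference 1.34, edgeR adjusted p = 0.000498). On the TPM scale *Fut9* was 1.71-fold higher, beside 2.54-fold in CPM, and its call was lost in limma with a pseudocount of 0.1 (0.73, adjusted p = 0.0223) and of 1 (0.51, adjusted p = 0.0238). *Fut4*, which makes the same linkage, fell from 2.38 ± 0.237 to 0.487 ± 0.0594 CPM (-2.29, edgeR adjusted p = 0.000854). *B4galt1*, the main galactosyltransferase of N-acetyllactosamine, fell from 53.1 ± 1.19 to 17.0 CPM in both libraries (-1.64, edgeR adjusted p = 6.95e-05). *Fut1*, which makes H antigen, passed the filter on low counts through its PD100 libraries alone, so nothing is read from its call. It had 16 and 17 counts at PD100 and 1 and 0 counts at PD800, at least 5.12-fold lower against the floor of 3 counts per library. The call of *Fut1* was lost without PD800 replicate 2 (log2 difference -3.86) and with DESeq2 (adjusted p = 0.0141). The called fucosyltransferases *Fut9* and *Fut4* differed in opposite directions, and the median of the tested genes was -0.05.

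Of 22 genes that supply ceramide or divert it, 20 were tested (*Sptlc3* and *Sptssb* were not), and 3 were called lower and 0 higher by edgeR, as by DESeq2, while 5 were higher at an unadjusted p under 0.05. *Cers1* fell from 1.83 ± 0.0376 to 0.486 ± 0.133 CPM (-1.90, edgeR adjusted p = 0.0028) and *Cers4* from 23.5 ± 1.62 to 9.55 ± 0.781 CPM (-1.30, edgeR adjusted p = 0.000323), both ceramide synthases. *Sgms2*, a sphingomyelin synthase that competes for ceramide, fell from 5.08 ± 0.623 to 2.31 ± 0.0374 CPM (-1.14, edgeR adjusted p = 0.00292). Without PD800 replicate 1, 1 gene was left (*Cers1* at an adjusted p of 0.0173 and *Sgms2* at 0.0217 were not called), and without PD800 replicate 2 *Sgms2* was not called (0.0180). The median of the tested genes was -0.19.

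In sialic acid supply 1 of 8 tested genes was called, and in ganglioside breakdown 2 of 16. This is 12.5% in each list, beside 15.1% of all tested genes. The called genes were higher at PD800, and 0 were called lower by edgeR or DESeq2 in either list. At an unadjusted p under 0.05 in edgeR, 2 supply and 7 breakdown genes were lower. *Cmas*, which activates sialic acid as the donor of the sialyltransferases, was called among 8 tested genes and rose from 41.6 ± 0.951 to 100 ± 3.75 CPM (log2 difference 1.27, SE 0.08, edgeR adjusted p = 0.000123). Among 16 of 18 breakdown genes that were tested (*Neu2* and *Neu4* were not), *Gla*, alpha-galactosidase A, rose from 14.6 ± 0.598 to 38.1 ± 0.263 CPM (1.38, edgeR adjusted p = 0.000114). *Galc*, the galactosylceramidase, rose from 5.85 ± 0.798 to 12.0 ± 1.53 CPM (1.04, edgeR adjusted p = 0.00248), but it was just over the fold threshold and fell below it without PD100 replicate 1 (0.91) or PD800 replicate 1 (0.90, adjusted p = 0.0153). *Gla* acts on globo-series lipids and *Galc* on galactosylceramide, and neither removes sialic acid. The medians were 0.09 for supply and -0.15 for breakdown. Over the 5 lists, 69 of 75 genes were tested. Of these 5 were called higher and 8 lower, *Fut1* among the lower, which is 18.8% beside the 15.1% of all tested genes.

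**Figure D4:**
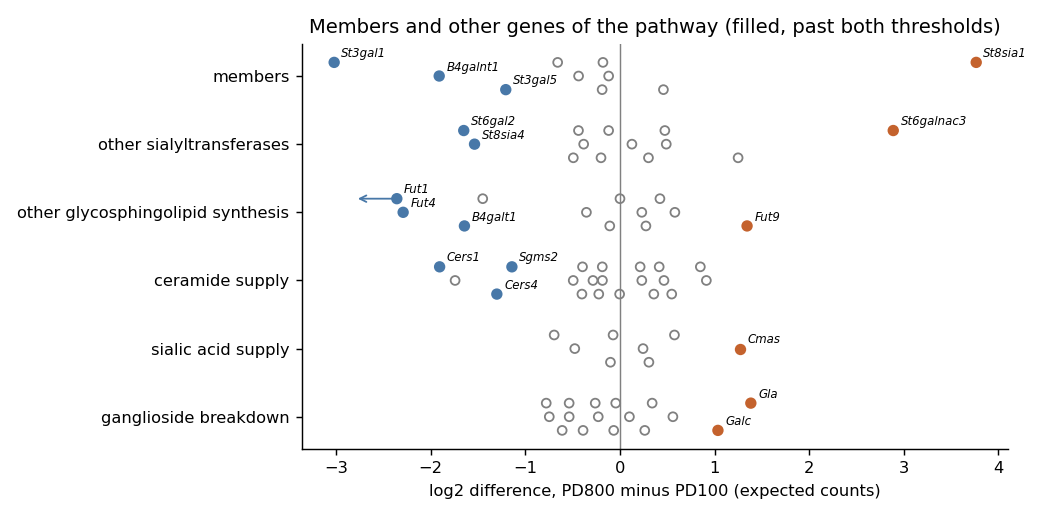
Log2 difference, PD800 minus PD100, of the 10 members (top row) and of the tested genes in 5 lists of related genes. Each circle is 1 gene, filled (orange higher, blue lower) where past an adjusted p of 0.01 and a fold of 2. The members were chosen with this contrast in view, so their filling is a description, not a test. *Fut1* is drawn at its lower bound, with an arrow. *St6galnac3* is the 1 filled orange circle among the other sialyltransferases, of which 6 of 13 lie above 0.

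Genes around *St8sia1* were higher at PD800 as well. *Cmas*, which rose in the same comparison, lies 45831 bases from *St8sia1* on chromosome 6. Of the 40 nearest tested genes, within 3.87 Mb, 18 were called higher and 2 lower, which is 50.0% beside 15.1% over all tested genes. Their median log2 difference was 0.98 (quartiles 0.51 and 1.51). *St8sia1* lay 2.79 above that median, and 0 of the 40 reached its value. The 3 highest were *A930014E10Rik* (3.54), *Gm7457* (3.37), which shares exon sequence with *St8sia1*, and *Ldhb* (2.61), which were named after their values were seen. *St3gal5*, on the same chromosome but 70.7 Mb away, had neighbours with a median of 0.11 and lay 1.32 below it. For the other 8 genes, the median of 40 neighbours was between -0.15 and 0.19, and *St3gal1* lay 2.87 and *B4galnt1* 1.84 below theirs. Neighbours share a region, so their values are a description of the region with no test.

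**Figure D5:**
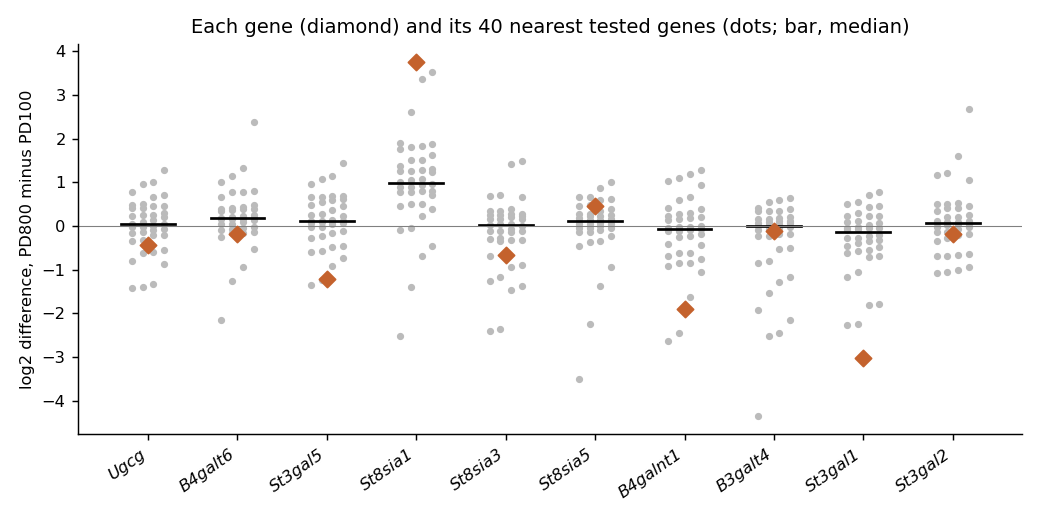
Log2 difference, PD800 minus PD100, of each gene (orange diamond) and of the 40 nearest tested genes on its chromosome (grey dots, with a black bar at their median). The cloud around *St8sia1* is centred at 0.98, while the clouds of the other genes are centred between -0.15 and 0.19.

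The genes whose levels over the 4 libraries were most like those of *St8sia1*, by Euclidean distance of centred log2 CPM, were *A2m* (distance 0.0346), *Sohlh2* (0.0419) and *Tmem35a* (0.146). *A2m* went from a mean of 2.59 to 36.6 CPM and also lies on chromosome 6. *Sohlh2*, on chromosome 3, went from 2.85 to 39.8 CPM, and *Tmem35a*, on chromosome X, from 1.40 to 20.2 CPM. Likeness over 4 libraries in 2 groups mostly matches the size of the group difference.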

How the data were processed

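RNA of DKO741 cells was measured in 2 PD100 and 2 PD800 libraries, grouped by the labels and called biological duplicates in the study's methods. Reads were aligned to mm10 with STAR 2.5.3a, per the submitters' processing notes, and the authors deposited RSEM 1.3.0 expected counts, which divide reads that align to several genes and are not scaled for depth. The authors also deposited TPM, scaled for transcript length and to the same total per library. The annotation release is not given in the sources used here, and of 53379 identifiers 53274 were found in GENCODE M21, which gave coordinates. Deposited FPKM values were not used.

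Rounded expected counts entered the quasi-likelihood test of edgeR 4.0.16 in R 4.3.3, with filterByExpr at a minimum count of 10, TMM factors and Benjamini-Hochberg adjustment over 19148 genes, after the procedure was tested on simulated data. CPM used TMM-scaled totals. The alternatives were DESeq2 1.42.0, other normalisations and filters, limma 3.58.1 on log2(TPM + 1) or log2(TPM + 0.1), the replicate number as a block, a looser threshold, and each library left out. The members and lists were chosen with earlier results of these data known. Named genes were *Terc*, the members, up to 3 highest and 3 lowest called genes per list, the 3 genes most like *St8sia1*, *Pou5f1*, *Sox2* and called markers with a mean of at least 5 CPM in either group. Other listed genes that are named were added after their values were seen. *St6galnac2* is on 2 identifiers, of which the longer locus was taken. No protein sequences were used here.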

Additional observations from a re-analysis of the deposited data

How the results depend on the processing

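Every one of the 118 alternative values of the 10 genes kept its sign, and 106 lay within the replicate spread. All values outside that spread came from the TPM scales. The other settings refit the same counts, so their values could differ little, and the size of the differences depends on the scale. With limma on log2(TPM + 1), 1217 genes were called (297 higher, 24.4%, against 41.6% with counts), with 2 members, 1 other sialyltransferase, 1 other glycosphingolipid gene, 1 ceramide gene and 0 breakdown genes (10 at an unadjusted p under 0.05, and 2 called with edgeR and with DESeq2). With log2(TPM + 0.1), 2312 were called (23.1% higher), breakdown had 1 called gene in each direction, and the members' median was -0.56, while the median of all genes moved to -0.21 (-0.12 for TPM + 1, 0.01 for counts). At an adjusted p under 0.05 without a fold threshold, 8739 genes passed, with 6 other sialyltransferases, 12 ceramide, 4 sialic acid and 10 breakdown genes. Leaving out each library in turn gave 2154 to 3397 called genes, 3 to 4 members, 1 to 4 other sialyltransferases, 3 to 4 other glycosphingolipid genes, 1 to 3 ceramide genes, 1 sialic acid gene, 1 to 2 breakdown genes and a members' median of -0.43 (without PD100 replicate 2) to -0.24. Calls of *St6gal2*, *Fut9*, *Sgms2* and *Galc* were lost on both TPM scales, and those of *St8sia4*, *Fut1*, *Fut4*, *Cers1* and *Gla* on log2(TPM + 1). The fits without a library hold fewer libraries, while the TPM fits hold all 4. The cause of these changes was not tested. With 2 libraries per group, the spread rests on few degrees of freedom.

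Replicate numbers are shared between the groups, but 2 pairs with a correlation of 0.35 between deviations do not show that the samples pair. A replicate block in the fit gave 3417 called genes, with 4 members, 4 other sialyltransferases, 4 other glycosphingolipid, 4 ceramide, 1 sialic acid and 2 breakdown genes.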
